A study of Mus musculus with 10 samples.

Results

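The genes described here are 43 members of the BMP and TGF-beta pathways, taken by gene name from a count table of 54532 genes measured in the brains of 10 Slc20a2-HO mice. They comprise 13 ligands, 10 receptors, 8 SMADs, 5 antagonists and 7 target genes. All 43 were present in the table and passed the filter on low counts. Slc20a2 encodes a phosphate importer, and mice without it calcify in the brain. Every mouse, treated or not, was HO for the tm1a(EUCOMM)Wtsi allele, and no wild type library was analysed here. FTY720, a modulator of sphingosine-1-phosphate receptors, was injected intraperitoneally at 0.5 mg/kg in dimethyl sulfoxide, 3 times a week for 12 weeks from the age of 1.5 months, in 6 mice. The 4 placebo mice received the solvent alone. RNA came from part of each perfused brain, and each library is 1 mouse. In the mice's names the letter F or P marks the group and is followed by the digit 1 or 3, whose meaning is not given in the sources used here. Nor is the meaning of the number after the hyphen. The digit 1 occurs in F1-622, F1-624, F1-918 and P1-623, and the digit 3 in the other 6 mice, 3 of each group. The 4 values of digit 1 mice below follow that order, and the 4 placebo values follow the order P3-612, P1-623, P3-904 and P3-907.

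BMP and TGF-beta ligands are secreted dimers that bring together type I and type II receptor kinases. The type I receptor phosphorylates receptor-regulated SMADs (SMAD1, SMAD5 and SMAD9 for BMPs, SMAD2 and SMAD3 for TGF-beta and activins), which join SMAD4 and enter the nucleus, while SMAD6 and SMAD7 inhibit the cascade. Extracellular antagonists such as noggin hold ligands away from receptors, and BMP signaling drives osteogenic programs through genes such as Runx2, Msx2 and the Id family.

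Libraries held 14772745 to 18303981 counts, and mitochondrial transcripts took 4.83% to 6.48% of them. The digits separated on the first principal component, which carried 46.8% of the variance. The placebo mouse P3-612 lay at -7.78 on it, between the other mice with the digit 3 (17.9 to 46.7) and those with the digit 1 (-59.9 to -22.4). Calls of members are therefore also given without it. Brain cell markers were abundant in every mouse, with summed levels of 5839.7 to 6651 CPM for 10 neuron genes (CPM, counts scaled to library size after TMM). Slc20a2 itself had 89 to 294 counts per mouse, and a count over the whole gene does not check the genotype. Its level followed the digit, from 6.31 to 9.43 CPM in digit 1 mice and from 11.5 to 17.0 CPM in digit 3 mice.

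Levels per gene length, in the authors' FPKM, put each role on a wide scale. Among the targets, Id2, which encodes an inhibitor of basic helix-loop-helix factors, had the highest FPKM of all 43 genes. Its 10 values ran from 36.7 to 70.0 FPKM, with a mean of 49.9 ± 10.4 (SD, n = 10). Id4 followed at 29.0 ± 2.87 FPKM. The activin type I receptor Acvr1b led the receptors at 27.5 ± 2.60 FPKM (range 24.6 to 32.1), above the BMP type II receptor Bmpr2 at 11.9 ± 1.47 FPKM and the BMP type I receptor Bmpr1a at 11.5 ± 1.99 FPKM. Smad4, the shared partner, led the SMADs at 12.04 ± 2.20 FPKM (range 9.25 to 15.5), and the ranges of Smad4 and Smad3 overlapped, with Smad3 at 10.8 ± 1.79 FPKM. Ligands were lower. Gdf11, a ligand close to myostatin, had the highest mean of them over all 10 mice, at 4.81 ± 0.571 FPKM (range 3.88 to 5.88). In 5 of the 6 digit 3 mice, however, Gdf10 was above Gdf11. Chrd, the BMP-binding antagonist chordin, had the highest mean of its role at 5.91 ± 0.341 FPKM (range 5.44 to 6.62). The antagonist Nog was above Chrd in 4 mice, F1-624, P1-623, P3-612 and P3-907, so the order of these genes was not the same in every mouse. The lowest members were Msx2 at 0.393 ± 0.213 FPKM with 4 to 36 counts per mouse and Bmp5 at 0.424 ± 0.269 FPKM with 2 to 63 counts, so their values carry the most counting error. The plot of levels by role shows the ordering.

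**Figure D1:**
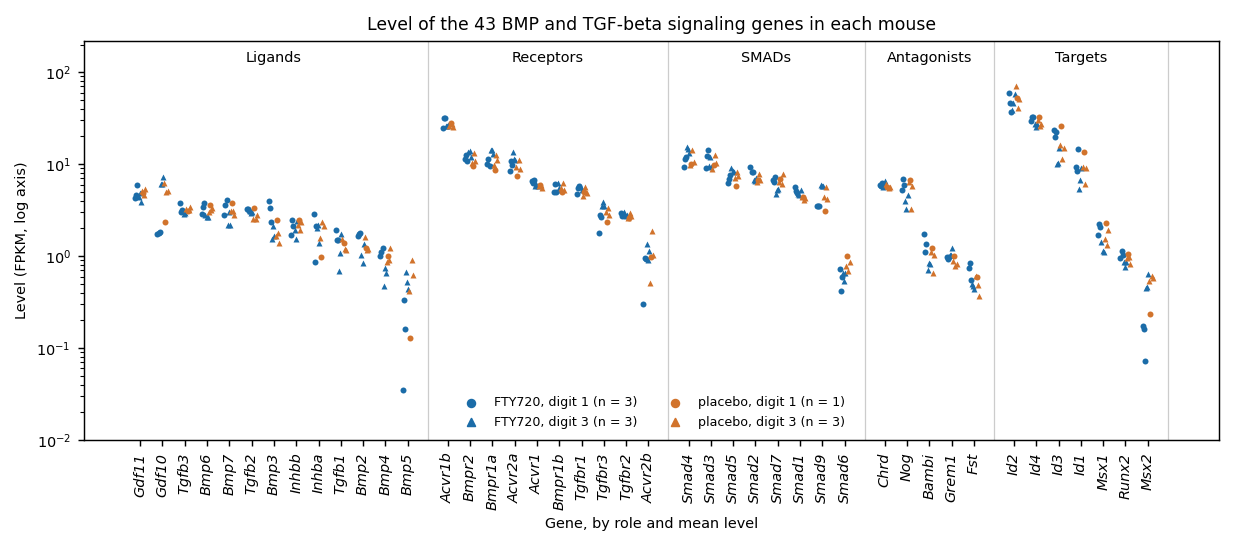
FPKM of the 43 genes in each of the 10 mice on a log axis, ordered by role and by mean level, with FTY720 mice in blue, placebo mice in orange, and the digit of the mouse's name as the symbol. Id2 lies highest, and Bmp5 and Msx2 are low with separate symbols for the digits.

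How the members differ between mice with the digit 3 and mice with the digit 1 was examined first, because the digit separated the libraries. Gdf10, Bmp5, Msx2 and Smad9 rose in digit 3 mice, by 3.11-, 3.44-, 3.26- and 1.605-fold, with few counts of Bmp5 and Msx2 in digit 1 mice. The receptors Bmpr1a, Acvr2a and Tgfbr3 and the BMP-specific Smad5 rose by smaller amounts. Bmp3, Bmp7, the antagonists Nog and Bambi, and the targets Id1, Id3, Id4 and Msx1 fell. In all, 16 of the 43 members passed, 8 higher and 8 lower, by the quasi-likelihood test of edgeR with treatment as covariate, at a Benjamini-Hochberg adjusted p under 0.05 over 17665 genes. That is 37.2% of members, where 30.0% of the 14784 protein-coding genes tested were called, 13.8% higher and 16.2% lower, so the share among members was near that of all genes. The median log2 difference of the members was -0.10, against -0.032 over the protein-coding genes tested. The CPM values of the digits did not overlap for 8 members, and for 15.0% of protein-coding genes.

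**Figure D2:**
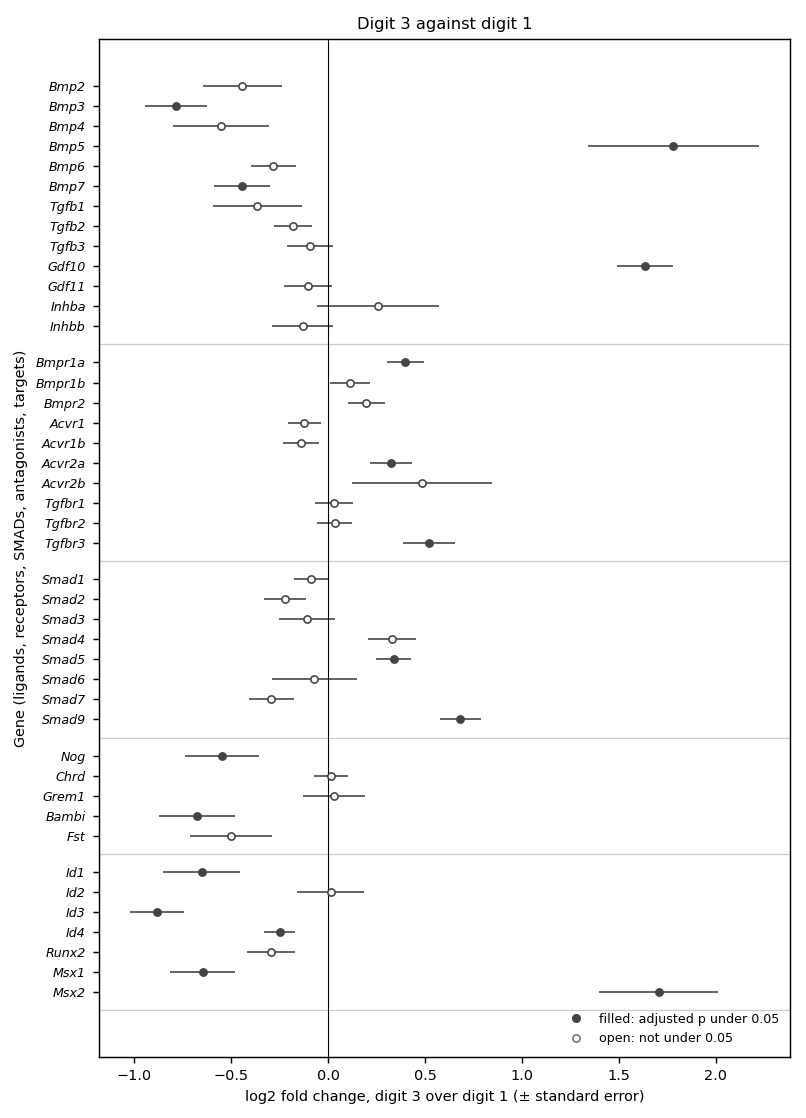
Log2 fold change of the 43 genes, digit 3 over digit 1, with its standard error, from the fit with treatment as covariate (n = 6 and 4 mice). Filled points had an adjusted p under 0.05 (edgeR), and lie on both sides of 0, with Bmp5, Msx2 and Gdf10 farthest to the right and Id3 and Bmp3 farthest to the left.

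Among the ligands, Gdf10 (ENSMUSG00000021943, chromosome 14 from 33923587 to 33937983, plus strand), also called Bmp3b, had the smallest p of all members. All gene coordinates are those of the deposited tables, on GRCm38. Gdf10 values with the digit 1 were 9.22, 9.31, 9.65 and 12.4 CPM. The 6 digit 3 mice had a lowest of 26.1, a median of 31.8 and a highest of 38.8 CPM. All digit 3 mice, P3-612 included, lay above every digit 1 mouse. The log2 difference was 1.64 (standard error 0.14, adjusted p = 9.23e-06, edgeR), and it was 1.86 in the 6 FTY720 mice alone, 3 of each digit. Bmp5 (ENSMUSG00000032179, chromosome 9 from 75775364 to 75900310, plus strand), an osteogenic BMP, was at 0.142, 1.36, 0.660 and 0.524 CPM in digit 1 mice. In digit 3 mice it had a lowest of 1.72, a median of 2.32 and a highest of 3.64 CPM. The groups did not overlap, although the digit 1 values rest on few counts, and the log2 difference was 1.78 (standard error 0.44, adjusted p = 0.0112, edgeR). Without P1-623, and in FTY720 mice alone, Bmp5 lost its call, with an adjusted p of 0.0532 in the latter (edgeR).

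Bmp3 (ENSMUSG00000029335, chromosome 5 from 98854415 to 98884396, plus strand), an atypical ligand that opposes osteogenic BMPs, moved the other way from its close relative Gdf10. It was at 29.8, 24.8, 17.5 and 18.7 CPM with the digit 1. With the digit 3 it had a lowest of 10.5, a median of 12.4 and a highest of 15.8 CPM. Each digit 1 mouse was above each digit 3 mouse, with a log2 difference of -0.78 (standard error 0.16, adjusted p = 0.00425, edgeR). Bmp7 fell by 0.44 on the log2 scale (adjusted p = 0.0348, edgeR), with overlapping groups. The other 9 ligands were not called. Bmp2, Bmp4, Bmp6 and Tgfb1 had log2 differences of -0.44, -0.55, -0.28 and -0.37. Tgfb2, Tgfb3, Gdf11 and the activin subunit genes Inhba and Inhbb lay between -0.18 and 0.26. In all, 4 of 13 ligands were called (30.8%), near the 30.0% of protein-coding genes.

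Of the 10 receptor genes, 3 rose in digit 3 mice by edgeR, the same share as the 30.0% of protein-coding genes, and 0 fell, also at an unadjusted p under 0.05. With trends on gene length and GC content removed, however, Tgfbr3 alone was called higher, and Bmpr2 and Tgfbr1 were called lower. Bmpr1a (ENSMUSG00000021796, chromosome 14 from 34410734 to 34503341, minus strand) encodes a BMP type I receptor. Its digit 1 values were 63.8, 73.2, 61.8 and 55.8 CPM. Digit 3 mice had a lowest of 62.9, a median of 81.7 and a highest of 91.4 CPM, and the groups overlapped through P3-612 and P3-907. The log2 difference was 0.40 (standard error 0.096, adjusted p = 0.00982, edgeR). The activin and BMP type II receptor Acvr2a differed by 0.33 (adjusted p = 0.0388, edgeR) and Tgfbr3, the co-receptor betaglycan, by 0.52 (adjusted p = 0.0142, edgeR). Tgfbr1 and Tgfbr2, the TGF-beta receptor kinases, had log2 differences of 0.029 (standard error 0.098) and 0.035 (standard error 0.091). The remaining 5 receptor genes, Bmpr1b, Bmpr2, Acvr1, Acvr1b and Acvr2b, lay between -0.14 and 0.48 and were not called.

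Among the SMADs, 2 that transmit BMP signals rose. Smad9 (ENSMUSG00000027796, chromosome 3 from 54755582 to 54801257, plus strand) was at 19.1, 19.2, 18.9 and 17.0 CPM in digit 1 mice. The digit 3 mice had a lowest of 22.8, a median of 30.7 and a highest of 32.0 CPM. The digits were fully separated, with P3-907 and P3-612 nearest to the digit 1 mice. The log2 difference was 0.68 (standard error 0.11, adjusted p = 0.000826, edgeR), and 0.73 in FTY720 mice alone. Smad5 differed by 0.34 (adjusted p = 0.0164, edgeR), and in FTY720 mice alone by 0.32 without a call (adjusted p = 0.0985, edgeR). The third of this class, Smad1, differed by -0.087 (adjusted p = 0.498, edgeR). Smad4, at 0.33, had an adjusted p of 0.0643 (edgeR) with all mice and was called once P3-612 was left out. Smad2, Smad3, Smad6 and Smad7 lay between -0.29 and -0.071 and were not called.

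Of the antagonists, Nog (noggin) fell by 0.55 and Bambi, a receptor-like inhibitor, by 0.68 on the log2 scale (adjusted p = 0.0481 and 0.0229, edgeR). Bambi was at 8.79, 5.72, 6.89 and 6.22 CPM with the digit 1, and its highest digit 3 value was 5.70 CPM, so the groups met without overlap. Fst (follistatin, which binds activins) differed by -0.50 and was not called (adjusted p = 0.0931, edgeR). Chrd and Grem1 differed by 0.014 and 0.030.

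Of the 7 targets 5 were called, 4 of them lower and 1 higher with the digit 3, where 16.2% of protein-coding genes were called lower and 13.8% higher. Id3 (ENSMUSG00000007872, chromosome 4 from 136143497 to 136145755, plus strand), a BMP-induced inhibitor of differentiation, was at 42.4, 35.8, 40.3 and 47.4 CPM in digit 1 mice. In digit 3 mice it had a lowest of 18.2, a median of 24.0 and a highest of 29.5 CPM. The groups did not overlap, and the log2 difference was -0.88 (standard error 0.14, adjusted p = 0.000960, edgeR), the same size as the -0.88 in FTY720 mice alone. Id1 and Id4 fell by 0.65 and 0.25 on the log2 scale (adjusted p = 0.0286 and 0.0348, edgeR). In FTY720 mice alone Id1 and Id4 were at -0.61 and -0.25 and were not called (adjusted p = 0.103 and 0.142, edgeR). Id2, the most abundant of the family, differed by 0.014 (standard error 0.17).

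The homeobox genes Msx1 and Msx2, both BMP targets, went in opposite directions. Msx1 (ENSMUSG00000048450, chromosome 5 from 37820485 to 37824583, minus strand) was at 5.32, 7.07, 6.54 and 7.14 CPM with the digit 1. With the digit 3 it had a lowest of 3.47, a median of 4.31 and a highest of 6.12 CPM. P3-907 lay among the digit 1 mice, and the log2 difference was -0.65 (standard error 0.17, adjusted p = 0.0137, edgeR). Msx2 (ENSMUSG00000021469, chromosome 13 from 53466884 to 53473074, minus strand) was at 0.567, 0.531, 0.240 and 0.786 CPM with the digit 1. With the digit 3 it had a lowest of 1.49, a median of 1.87 and a highest of 2.15 CPM. No value of Msx2 overlapped, and its log2 difference was 1.71 (standard error 0.31, adjusted p = 0.00213, edgeR). The digit 1 mice had only 8, 9, 4 and 12 counts of Msx2, so it passed the filter mainly through the digit 3 mice (25 to 36 counts). Over the alternatives its log2 difference ran from 0.397 to 1.94. Runx2, the regulator of osteoblast fate, differed by -0.29 and was not called (adjusted p = 0.0859, edgeR). Over the 210 ways to split the 10 mice, the exact permutation test (two-sided, on log2 CPM means) gave p = 0.00476, the smallest it can give, for Gdf10, Bmp5, Bmp3, Id3 and Msx2.

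**Figure D3:**
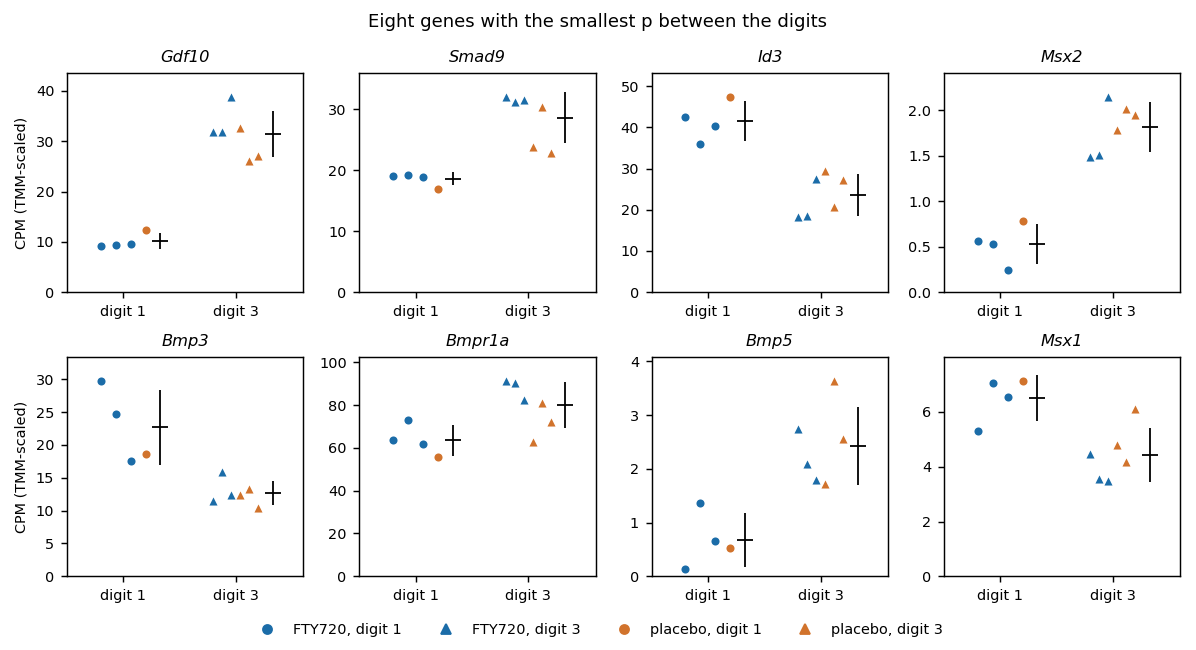
CPM of the 8 genes with the smallest p between the digits, 1 symbol per mouse, with the mean and SD of each digit beside the symbols (4 digit 1 mice and 6 digit 3 mice). Gdf10, Smad9, Msx2 and Bmp5 are fully higher and Id3 and Bmp3 fully lower with the digit 3, while Bmpr1a and Msx1 overlap.

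Markers of brain regions moved with the digit as well. Summed levels of 9 cerebellar granule cell genes were 250.4 to 281 CPM in digit 1 mice and 1111 to 1259.7 CPM in digit 3 mice, P3-612 included, and 8 of the 9 were higher (edgeR, adjusted). Among the 9, Calb2 and Etv1 were at 76.4 to 116 and 77.8 to 94.6 CPM in digit 1 mice. Gabra6, Cbln3 and Fat2 were at most 0.240, 1.14 and 0.425 CPM there. In digit 3 mice these 3 genes were at least 130, 251 and 91.5 CPM. Hindbrain genes, among them Hox genes, summed to 0.540 to 0.655 and 54.2 to 75.0 CPM, and 9 Bergmann glia and Purkinje cell genes to 797 to 919.8 and 1920.4 to 2455 CPM, with 8 of 9 higher. The Purkinje cell gene Pcp2 was at 0 to 0.236 CPM in digit 1 mice and 20.1 to 33.7 CPM in digit 3 mice. Genes of the cerebral cortex and hippocampus were lower with the digit 3 in 8 of 10 cases (608 to 662 against 399 to 488 CPM), as were 7 of 10 microglia genes (379 to 460.4 against 267 to 362 CPM). In each of the 10 other marker lists, among them astrocyte, oligodendrocyte, endothelial, choroid plexus and T cell genes, 0 to 3 genes were called between the digits. In such bulk tissue, fewer cells of a type and less RNA per cell cannot be told apart, and the part of these markers in the members' differences was not tested.

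Gene length and GC content also moved with the digit. The 8 members that rose had a median gene length of 5527 bases and a median GC content of 46.3%, and the 8 that fell had 3473 bases and 55.0%. The corresponding medians over protein-coding genes were 6453 bases and 44.9%, and 3254 bases and 55.4%. With trends on both removed from each library, an alternative chosen after seeing the data, 15 members were called, 5 higher and 10 lower, where 28.8% of protein-coding genes were called, 9.59% higher and 19.2% lower. Gdf10, Bmp5, Msx2, Smad9 and Tgfbr3 remained higher, and Bmp3, Bambi, Id3 and Id4 remained lower. The log2 difference of Bmpr1a went to 0.091 and that of Smad5 to 0.097, neither called, Acvr2a turned to -0.0104, and Bmp7, Nog, Id1 and Msx1 stayed negative without a call. Bmpr2, Fst, Runx2, Smad2, Tgfb2 and Tgfbr1 were then called lower. Leaving out F3-609 or P1-623 lowered the count of members called to 9, while the protein-coding genes called fell from 4441 to 2616 and 2309. Without P3-612, 17 members were called, the 16 and Smad4, and 5261 protein-coding genes. Of the 43 members, 18 overlap another gene, among them Bmp5, Bmpr1a, Acvr2a, Tgfbr3, Smad5 and Id4, and the strand setting of the counting is not given in the sources used here, so their counts may hold reads of the neighbour.

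Promoter sequence was examined as a description. RefSeq promoter windows (GRCm38.p6) of the 250 bases before the RefSeq start were matched for 31 of the 43 members. These members had 36 windows, as some have several starts. A RefSeq start can differ from the deposited gene start, and the Id3 window printed below lies inside the deposited coordinates of Id3. The SMAD binding element CAGAC, on either strand, was in 13 of the 36 windows and in 42.2% of 32851 windows in all. The GC-rich motif GGCGCC, which is its own reverse complement and part of the BMP responsive element, was in 9 of the 36 and in 9.59% of all windows. Neither motif holds the other. The windows below belong to Gdf10, Smad9 and Id3, the 3 members with the smallest p between the digits, of which Gdf10 and Smad9 rose and Id3 fell. Capitals mark CAGAC or its reverse complement GTCTG in Gdf10 and Id3, and GGCGCC in Smad9.
Gdf10 (chr14:33923337-33923586, plus strand): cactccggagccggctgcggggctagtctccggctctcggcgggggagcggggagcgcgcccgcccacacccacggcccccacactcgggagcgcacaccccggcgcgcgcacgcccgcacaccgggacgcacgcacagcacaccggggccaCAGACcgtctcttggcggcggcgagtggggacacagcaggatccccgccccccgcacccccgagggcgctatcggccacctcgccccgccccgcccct
Smad9 (chr3:54755332-54755581, plus strand): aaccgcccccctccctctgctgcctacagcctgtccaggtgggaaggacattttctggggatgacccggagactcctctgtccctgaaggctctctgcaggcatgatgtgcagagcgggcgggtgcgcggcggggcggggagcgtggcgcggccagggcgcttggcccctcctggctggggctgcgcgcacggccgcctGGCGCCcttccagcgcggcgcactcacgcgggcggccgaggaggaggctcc
Id3 (chr4:136143572-136143821, plus strand): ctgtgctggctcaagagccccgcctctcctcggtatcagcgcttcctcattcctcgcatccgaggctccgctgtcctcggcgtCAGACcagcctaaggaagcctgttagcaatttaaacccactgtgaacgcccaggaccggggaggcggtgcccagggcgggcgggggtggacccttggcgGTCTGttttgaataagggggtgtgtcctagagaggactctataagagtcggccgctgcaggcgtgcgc

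Whether FTY720 changed the members was then asked by comparing the 6 treated mice with the 4 placebo mice. Smad1 was higher and Smad6 lower with FTY720, and no other member reached an unadjusted p under 0.05, the study's criterion. These 2 of 43 are 4.65% of the members, where 2.61% of protein-coding genes were called, 1.14% higher and 1.47% lower. After adjustment no member passed, by the quasi-likelihood test of edgeR or the Wald test of DESeq2, which also called 2 members before adjustment. The median log2 difference of the members was 0.065, against 0.00465 over the protein-coding genes tested.

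Smad1 (ENSMUSG00000031681, chromosome 8 from 79338395 to 79399518, minus strand), a BMP receptor-regulated SMAD, was at 28.2, 28.3, 26.0 and 27.4 CPM in the placebo mice. With FTY720 it had a lowest of 29.2, a median of 31.6 and a highest of 35.7 CPM. All treated mice lay above all placebo mice, which held for 0.487% of protein-coding genes, but the gap was narrow. The log2 difference was 0.21 (standard error 0.097, unadjusted p = 0.0491, adjusted p = 0.99992, edgeR), and the two-sided exact permutation test gave p = 0.0143 before any adjustment. Leaving out any of F1-622, F1-624, F3-908 or the 4 placebo mice took its p above 0.05.

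Smad6 (ENSMUSG00000036867, chromosome 9 from 63953076 to 64022059, minus strand), the inhibitory SMAD of the BMP branch, had 23 to 52 counts per mouse. Its placebo values were 2.55, 3.28, 2.25 and 2.82 CPM. With FTY720 it had a lowest of 1.36, a median of 2.003 and a highest of 2.34 CPM. The groups overlapped through P3-904 and F1-622, and the log2 difference was -0.49 (standard error 0.21, unadjusted p = 0.0373, adjusted p = 0.99992, edgeR). Without F1-624, F1-918, F3-612, P3-612, P1-623 or P3-907 its p exceeded 0.05.

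With the digit as a covariate, 7 of 43 members (16.3%) had an unadjusted p under 0.05, against 14.1% of protein-coding genes, 5.64% higher and 8.45% lower, so the members' share was again near the background. They were 3 receptors and 4 SMADs, and none passed adjustment by edgeR (smallest adjusted p 0.354) or by DESeq2, which also called 7 before adjustment and gave no adjusted p for 8 members. By edgeR, 3 of 10 receptors (Bmpr1a, Acvr2a and Bmpr2) and Smad5 and Smad9 were higher, and the inhibitory Smad6 and Smad7 were lower, while the 7 called by DESeq2 held Smad1 in place of Smad6. The log2 differences of these 7 genes are given as FTY720 over placebo with the digit as covariate.

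Bmpr1a was at 62.9, 55.8, 81.1 and 72.2 CPM with placebo. With FTY720 it had a lowest of 61.8, a median of 77.8 and a highest of 91.4 CPM. The groups overlapped, with the digit 1 mice of the FTY720 group among the placebo values, and the log2 difference was 0.28 (standard error 0.095, unadjusted p = 0.0126, edgeR). Acvr2a, at 53.4, 42.8, 63.1 and 51.1 CPM with placebo, had a lowest of 48.0, a median of 63.2 and a highest of 77.0 CPM with FTY720. Its groups overlapped too, and it differed by 0.32 (standard error 0.11, unadjusted p = 0.0105, edgeR). Bmpr2, the BMP type II receptor, was at 187, 175, 239.9 and 199 CPM with placebo and had a lowest of 199, a median of 224 and a highest of 249.97 CPM with FTY720. Only P3-904 of the placebo mice reached the upper treated values, and the log2 difference was 0.22 (unadjusted p = 0.0373, edgeR).

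Smad5 was at 52.8, 43.3, 60.9 and 56.4 CPM with placebo and had a lowest of 46.4, a median of 59.0 and a highest of 68.0 CPM with FTY720. Smad9 was at 23.7, 17.0, 30.4 and 22.8 CPM with placebo and had a lowest of 18.9, a median of 25.2 and a highest of 32.0 CPM with FTY720. Both overlapped between the groups and differed by 0.20 and 0.26 (unadjusted p = 0.0436 and 0.0274, edgeR). Smad7, the inhibitory SMAD of both branches, was at 29.2, 31.9, 28.0 and 36.1 CPM with placebo and had a lowest of 21.2, a median of 27.1 and a highest of 33.1 CPM with FTY720. The 3 lowest values of Smad7 belonged to FTY720 mice with the digit 3, and it differed by -0.29 (unadjusted p = 0.0253, edgeR). Smad6 differed by -0.51 (unadjusted p = 0.0341, edgeR), close to its value without the covariate, and Smad1 by 0.19 (unadjusted p = 0.0591, edgeR).

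**Figure D4:**
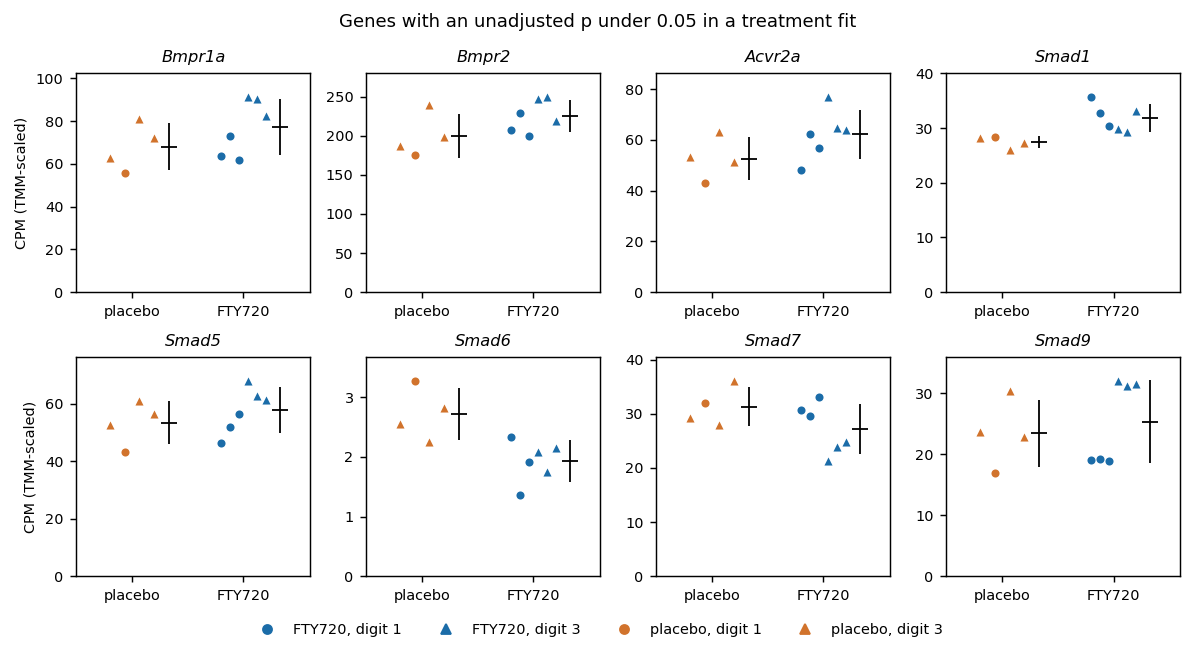
CPM of the 8 genes with an unadjusted p under 0.05 in a treatment fit, 1 symbol per mouse (4 placebo and 6 FTY720 mice, with the digit as the symbol), with the mean and SD of each group beside the symbols. Only Smad1 shows no overlap between the groups, and within Smad9 and Bmpr1a the triangles (digit 3) lie above the circles (digit 1) of the same group.

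In the 6 digit 3 mice alone, 3 of each group, 4 of 43 members had an unadjusted p under 0.05, where 7.95% of protein-coding genes did. These were Bmpr1a at 0.30, Acvr2a at 0.30, Smad9 at 0.31 and Smad7 at -0.41 on the log2 scale, and the smallest adjusted p of the 4 was 0.654 (edgeR). With trends on gene length and GC content removed, Smad1 kept its difference at 0.22 (unadjusted p = 0.0542, edgeR), and Smad6 went to -0.28 (unadjusted p = 0.235, edgeR), both without the covariate. No member was then called without the covariate (2.36% of protein-coding genes) and Smad9 alone with it (6.32%), at 0.21 (unadjusted p = 0.0346, edgeR). Over all alternatives run with the covariate, log2 differences were as small as 0.011 for Bmpr2, 0.064 for Smad5, 0.12 for Bmpr1a and 0.16 for Acvr2a. Those of Smad6 and Smad7 were as small as -0.21 and -0.15. With the digit as covariate, the 5 members higher with FTY720 had a median gene length of 6351 bases and a GC content of 41.3%, and the 2 lower had 3863 bases and 58.9%.

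The counts of calls depended on single mice, for members and for all genes. Without P3-612, 0 members were called without the covariate, with Smad1 at 0.23 and Smad6 at -0.52 (unadjusted p = 0.0687 and 0.0511, edgeR), and the protein-coding genes called fell from 386 to 213. With the covariate, Acvr2a, Bmpr1a, Smad6 and Smad7 were called without P3-612, and the protein-coding genes called fell from 2083 to 1207. Bmpr2, Smad5 and Smad9 were then at 0.18, 0.18 and 0.22 (unadjusted p = 0.0943, 0.0970 and 0.0759, edgeR). Without the covariate, 0 members were called also when F1-624, P1-623 or P3-907 was left out (303, 351 and 214 protein-coding genes), 1 when F1-918, F3-612 or F3-908 was left out (552, 355 and 421), 2 without F1-622 or F3-609 (445 and 277) and 3 without P3-904 (862). With the covariate, 2 were called without F3-612 or P3-907 (1525 and 1160 protein-coding genes), 3 without F3-609 (931), 4 without F1-624 or P1-623 (1662 and 1190), 7 without F1-918 or F3-908 (2091 and 2593), 9 without F1-622 (2363) and 10 without P3-904 (3411).

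Markers of some cell types moved with FTY720 too. With the digit as covariate, 7 of 10 endothelial cell genes were higher at an unadjusted p under 0.05 (edgeR) and none was lower, and without it 3 of 10 were higher. The median log2 difference of the 10 was 0.42 with the covariate and 0.32 without it. Of the 3 most abundant, the receptor Flt1 and the transporter Slco1a4 were higher, at log2 differences of 0.56 and 0.73 with the covariate, and the tight junction gene Cldn5 was at -0.24 and was not called. The 10 genes summed to 173 to 197 CPM with placebo and to 186 to 305 CPM with FTY720. Of 10 oligodendrocyte genes, 4 were lower with the covariate and 3 without it, and their sum was 6741 to 7840.03 CPM with placebo and 5967 to 6894 CPM with FTY720. Of 10 oligodendrocyte progenitor genes, 3 were lower with the covariate, and each of the 12 other lists had 0 to 2 genes called. The smallest adjusted p of a marker gene with the covariate was 0.354 (edgeR), and the part of these markers in the values of the receptors and SMADs was not tested.

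None of the 13 ligands, 5 antagonists or 7 targets had an unadjusted p under 0.05 in either treatment fit by edgeR. The smallest p of a ligand without the covariate was 0.130 for Bmp3, with a log2 difference of 0.44. Gdf10 and Id3, the ligand and the target with the smallest p between the digits, were at 21.8 ± 13.8 and 24.6 ± 8.59 CPM and at 30.5 ± 10.7 and 31.2 ± 11.4 CPM with FTY720 and placebo (SD, n = 6 and 4). Runx2 was at 8.31 ± 1.24 and 8.49 ± 0.804 CPM, a log2 difference of -0.030 (standard error 0.15). All 7 targets had a negative difference with the covariate, between -0.32 and -0.060, and none of them passed. Tgfb1, Tgfbr1 and Tgfbr2 lay between -0.033 and 0.13.

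**Figure D5:**
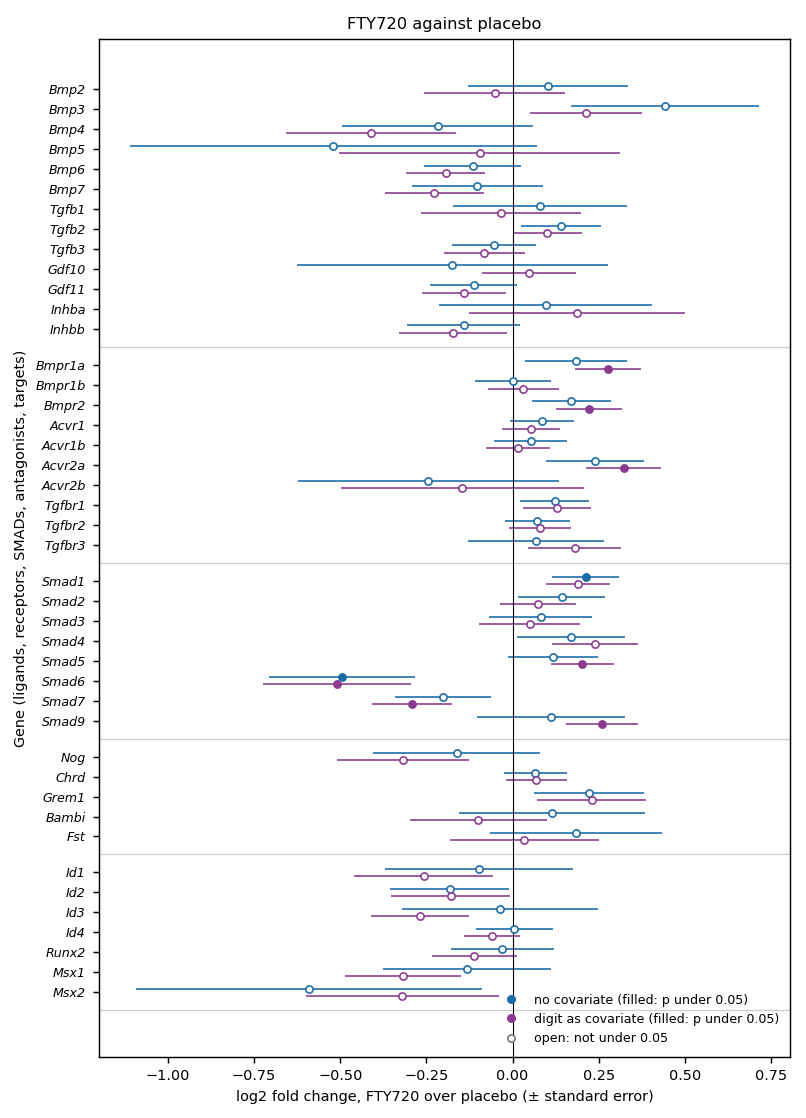
Log2 fold change of the 43 genes, FTY720 over placebo, with its standard error, without a covariate and with the digit as covariate (n = 6 and 4 mice). Filled points had an unadjusted p under 0.05, 2 without and 7 with the covariate, and no gene passed after adjustment (edgeR).

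Whether the treatment effect differed between the digits was tested by an interaction term, in which placebo with the digit 1 is the single mouse P1-623, assumed to vary like the others. No member was called, as was the case for 0.0% of protein-coding genes, and the smallest adjusted p was 0.99994 (edgeR's quasi-likelihood test). DESeq2's Wald test also called 0. At an unadjusted p under 0.05 edgeR gave 345 genes of all kinds, of which 1 was a member, Gdf10, whose level in P1-623 stood apart from the other digit 1 mice, so nothing is drawn from it.

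Of 89 further genes of the pathways, listed by role and not by their change, 65 passed the filter on low counts. Between the digits 19 of them (29.2%) were called, 11 higher and 8 lower, close to the 30.0% of protein-coding genes. The 2 largest increases were in Ltbp2 and Tll1. Ltbp2, a latent TGF-beta binding protein, was at 0.354, 1.30, 0.839 and 1.05 CPM with the digit 1 and at 12.7 to 19.9 CPM with the digit 3. Its log2 difference was 4.25 (adjusted p = 2.15e-07, edgeR). The metalloproteases Tll1 and Bmp1, which cleave chordin, rose by 1.99 and 0.81 on the log2 scale, and Bmp1 was at 56.2 ± 8.98 and 102 ± 8.95 CPM (SD, n = 4 and 6). The matrix phosphoprotein gene Spp1 (osteopontin) rose by 1.09, the SMAD anchor gene Zfyve16 by 0.68 and Xiap, which links BMP receptors to TAK1, by 0.55. The bone-related homeobox gene Dlx5 fell by 0.91, the TGF-beta target Pmepa1 by 0.60, Ctgf by 0.54 and Fkbp1a, whose product binds type I receptors, by 0.54 (adjusted p between 0.00381 and 0.0114, edgeR). Of these 10 genes, Xiap lost its call with the length and GC trends removed.

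With FTY720, 4 of the 65 genes were called at an unadjusted p under 0.05, all lower (6.15%, against 2.61% of protein-coding genes), and none passed adjustment by edgeR (adjusted p = 0.99992). Ltbp3, a second latent TGF-beta binding protein, was at 67.5, 64.9, 72.0 and 70.5 CPM with placebo and 46.1 to 65.3 CPM with FTY720, a log2 difference of -0.32 (unadjusted p = 0.0114). Inha, the inhibin alpha subunit, was at 31.4, 32.8, 25.5 and 30.3 CPM with placebo and 20.03 to 26.8 CPM with FTY720, a log2 difference of -0.34 (unadjusted p = 0.0138, edgeR). Tab1, a partner of TAK1, and Fstl3, an activin-binding protein near the limit of counting, differed by -0.35 and -0.78 (unadjusted p = 0.0240 and 0.0481, edgeR). The groups overlapped for all 4. With the digit as covariate 9 of the 65 genes (13.8%, against 14.1%) were called, 4 higher and 5 lower. In the digit 3 mice alone and with the length and GC trends removed, none of the 4 was called. The log2 differences of Ltbp3, Inha, Tab1 and Fstl3 in the digit 3 mice alone were -0.23, -0.30, -0.26 and -0.38. All 4 stayed negative in every alternative in which they were tested, with Inha as small as -0.107.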

How the data were processed

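Brain RNA of 10 Slc20a2-HO mice (6 FTY720, 4 placebo) was sequenced in paired-end libraries. Per the labels and the study's methods, bases were called with CASAVA 1.8 and reads aligned to GRCm38/mm10 with HISAT2 2.0.5, and the submitters' processing notes also name fastp, featureCounts 1.5.0-p3 and DESeq2 1.20.0. The authors deposited whole-number counts per gene, without normalization, and FPKM values made from them, which scale by gene length and library total. The strand setting is not given in the sources used here. The mice are separate animals.

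Counts were kept by filterByExpr (17665 genes, 14784 protein-coding), given TMM factors and fitted by edgeR 4.0.16 under R 4.3.3, whose quasi-likelihood test was used with Benjamini-Hochberg adjustment. Following the study, treatment calls used an unadjusted p under 0.05, and calls for the digit in the name an adjusted p under 0.05, both counted beside the protein-coding background. For single members, an exact permutation test (two-sided) was run on mean log2 CPM with a prior count of 2. The standard error is the log2 difference over the square root of F. The 43 members, their roles and the other gene lists were chosen with earlier results of these data known. Genes with each mouse's values were those with an unadjusted p under 0.05 for treatment, with or without the digit as covariate, the 8 with the smallest p between the digits and, in FPKM, the highest of each role. Of the further pathway genes, those called with FTY720 and the 10 with the smallest p between the digits were named. Marker lists for 15 cell types or regions were counted in the same fits. Promoter windows and motif counts came from a RefSeq table. On simulated data for the treatment comparison (17427 genes), edgeR recovered 96 of 100 genes changed by a log2 of 1 and 100 of 100 changed by 2, with 10 false calls. For the digit comparison (17414 genes) it recovered 99 and 100, with 9 false calls. Each simulation held only the compared difference, so the treatment simulation had no difference between the digits. Simulated calls used an adjusted p under 0.05, and no change below a log2 of 1 was simulated. The recovery therefore says nothing about treatment differences as small as those of the members. As alternatives, DESeq2 1.42.0 (Wald test), upper-quartile and RLE factors, no filter, at least 10 counts in every mouse, limma 3.58.1 (voom, and log2 of FPKM plus 0.1 or 1), each mouse left out, other covariates or subsets of mice, and removal of trends on gene length and GC content were tried. No pair of libraries agreed within sampling noise (chi-square per degree of freedom at least 16.1 in 45 pairs).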

Additional observations from a re-analysis of the deposited data

Results flagged for a closer look

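Within a group of mice, 7 values of members stood far from the rest of their group by Dixon's test, of 172 groups examined (4.07%), and chance gives about 1 in 20. Among FTY720 mice, Tgfb3 was at 13.0 CPM in F1-622, where the others had 9.65 to 10.9 CPM, and Grem1 at 5.14 CPM in F3-908, where the others had 3.95 to 4.30 CPM. Among digit 1 mice, P1-623, the only placebo mouse, had 12.4 CPM of Gdf10 beside 9.22 to 9.65 CPM in the others, and 17.0 CPM of Smad9 beside 18.9 to 19.2 CPM. F1-622 had 1.21 CPM of Acvr2b beside 3.66 to 3.87 CPM, and 114 CPM of Id4 beside 127 to 128 CPM. F1-624 had 36.6 CPM of Bmpr1b beside 30.1 to 30.2 CPM.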

How the results depend on the processing

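Over the alternatives, 834 values of named genes were recomputed, of which 692 kept their direction and their side of the threshold, 141 kept the direction and lost the call, and 1 turned, Acvr2a between the digits at -0.0104 with the length and GC trends removed. Gdf10, Smad9, Id3, Bmp3 and Tgfbr3 kept their digit call in the 22 alternatives run and Msx2 in 21, as it was not tested with at least 10 counts in every mouse. Nog, Id4, Acvr2a and Bmp7 were without it in 12, 11, 11 and 9 of 22. For FTY720 against placebo, 1 member was called with upper-quartile factors, limma-voom, log2(FPKM + 1) or the leading digit of the number after the hyphen as covariate. The protein-coding genes called were then 381, 392, 410 and 309. Members called were 0 without a filter or with the trends removed (472 and 348 protein-coding genes), and 4 (1172 protein-coding genes) in digit 3 mice alone. With the digit as covariate, removing the trends gave 1 member and 934 protein-coding genes, against 7 and 2083. Between the digits, 10 members were called without the treatment covariate (3219 protein-coding genes, against 4441), and 10 (2733 protein-coding genes) in FTY720 mice alone. Leaving out 1 mouse gave 0 to 3 members and 213 to 862 protein-coding genes for treatment, 2 to 10 and 931 to 3411 with the digit as covariate, and 9 to 17 and 2309 to 5261 between the digits. Of the protein-coding genes called, 43.5% were higher with FTY720 (66.1% with the trends removed) and 46.1% with the digit 3 (33.3%). The causes were not tested. The interaction gave 0 calls in every fit run. No paired analysis was possible because the groups share only the number 612 after the hyphen of the name, in different animals. The meaning of that number is not given in the sources used here. Members with few counts (Bmp5, Msx2, Smad6) are limited by depth, and P1-623 is the only placebo mouse with the digit 1.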
